A study of Mus musculus with 24 samples.

Results

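The nuclear-encoded subunit genes of the mitochondrial respiratory chain and ATP synthase were described in primary mouse chondrocytes, the cells that build cartilage. Members were chosen by symbol alone: names of the Nduf, Sdh, Uqcr, Cox4 to Cox8 and Atp5 families were kept and Ndufa4l2 was left out. The rule found 82 of the 17094 genes in the table, of which 36 belong to complex I, 4 to complex II, 8 to complex III, 17 to complex IV and 17 to complex V. Ndufa4 was counted in complex IV, where its protein is now placed, and Cox7a2l, a factor that joins complexes III and IV, was counted with complex IV. The subunits encoded by mitochondrial DNA were not analysed here.

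Poly(A)-enriched RNA was sequenced in 24 libraries, 3 in each of 8 groups, all of wild-type genotype. Chondrocytes grew in the lower chamber either with primary dermal fibroblasts above them (co-culture) or alone (normal culture), with IL-1β at 10 ng/ml (treated) or without it (untreated), and were collected 72 h or 36 h after IL-1β was given to attached cells. The groups were thus treated and untreated co-culture and treated and untreated normal culture, each at 72 h and at 36 h. Strain and age are not given in the sources used here, nor whether the 3 libraries of a group came from separate animals or cultures. The p-values thus measure the spread between these libraries, which may be technical and was pooled over the 8 groups. The fibroblasts shared medium with the chondrocytes only through the membrane and were not themselves sequenced.

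The respiratory chain passes electrons from NADH (complex I) and succinate (complex II) through ubiquinone to complex III, by cytochrome c to complex IV, and to oxygen. Complexes I, III and IV pump protons, and complex V, the ATP synthase, uses the gradient to make ATP. Several subunits of complex IV exist as isoforms encoded by separate genes, of which one is used in most tissues and another in heart and skeletal muscle, lung or testis. Chondrocytes live in poorly supplied tissue and are known for their reliance on glycolysis, and IL-1β is widely used to model the inflammatory state of diseased cartilage.

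The promoter stretches of 3 members are shown because these genes carry the main patterns below: Cox6b2 and Uqcrh rose with IL-1β in all 4 settings, and Atp5g3 was higher at 72 h in all 4. They are RefSeq sequence of build GRCm38.p6, all on the minus strand, 5′ to 3′, and end at the last base before the annotated gene start. Capitals mark matches to the motifs listed with the promoter shares at the end: in Uqcrh an ETS match that begins 10 bases before the RefSeq start, and in Atp5g3 an estrogen-related receptor match at 52 bases and a pair of overlapping hypoxia response element cores at 237 and 238 bases. In the Cox6b2 stretch none of the searched motifs was found.
Cox6b2 (chr7:4753095-4753344): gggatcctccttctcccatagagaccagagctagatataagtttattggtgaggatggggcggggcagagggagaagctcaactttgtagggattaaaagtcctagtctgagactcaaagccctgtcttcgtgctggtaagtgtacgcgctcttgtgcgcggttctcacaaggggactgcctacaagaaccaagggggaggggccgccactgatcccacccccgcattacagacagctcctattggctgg
Uqcrh (chr4:116075072-116075320): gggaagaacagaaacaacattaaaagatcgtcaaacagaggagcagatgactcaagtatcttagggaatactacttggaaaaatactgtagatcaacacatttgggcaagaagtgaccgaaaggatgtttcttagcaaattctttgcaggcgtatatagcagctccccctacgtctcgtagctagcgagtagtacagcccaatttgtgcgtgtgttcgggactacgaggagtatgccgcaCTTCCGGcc
Atp5g3 (chr2:73911327-73911576): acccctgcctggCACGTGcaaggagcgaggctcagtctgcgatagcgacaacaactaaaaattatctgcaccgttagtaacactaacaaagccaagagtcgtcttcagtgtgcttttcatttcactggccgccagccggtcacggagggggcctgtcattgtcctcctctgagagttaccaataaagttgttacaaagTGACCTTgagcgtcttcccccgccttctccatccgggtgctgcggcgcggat

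The values are FPKM, fragments per length of gene scaled to the mapped fragments of a library, and library sums ran between 438242.5 and 506621.3 FPKM. The depth is unknown, since read counts were not given. Replicate 3 stood apart in both treated 72 h groups: it was the highest library for 74 of the 82 members in co-culture and for 74 in normal culture, so counts that rest on these libraries are also given without them, as are the reported calls of single members that were lost without them. The summed level of 10 chondrocyte markers was 222 to 256 FPKM in treated and 905 to 972 FPKM in untreated cells at 72 h, and 155 to 171 FPKM in treated and 550 to 649 FPKM in untreated cells at 36 h, with the defining marker Matn1 averaging under 1 FPKM in every group. In bulk RNA, fewer cells of a type and less RNA per cell cannot be told apart.

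All 82 members reached 1 FPKM in at least 3 libraries and were tested. Together they made up 1.61 to 1.99% of all FPKM in a library. Per length of gene, complex V was the most abundant, with a median over members of 169 FPKM and Atp5b, the catalytic beta subunit, at the top with 451 FPKM averaged over all libraries. Complex IV followed with a median of 115 FPKM and the widest range, with Cox4i1, the common isoform of subunit 4, at the top and Cox8b, a muscle isoform, at the bottom with 0.534 FPKM. The medians of complexes III, II and I were 71.0, 66.5 and 57.5 FPKM, and their highest members were Uqcrh (175 FPKM), Sdhc (93.7 FPKM) and Ndufa7 (132 FPKM). Ndufb4c is annotated as a processed pseudogene of Ndufb4, and the subunit c genes Atp5g1, Atp5g2 and Atp5g3 encode the same mature protein, so reads may have been split between near copies and their values are uncertain.

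The summed level of the members was higher in every 72 h library than in any 36 h library of the same culture and treatment; the sums were not tested. It was 8868 ± 772 FPKM in treated co-culture at 72 h and 8113 ± 86.6 FPKM at 36 h, and 8874 ± 283 FPKM in untreated co-culture at 72 h and 7337 ± 235 FPKM at 36 h (SD, n = 3 each). Normal culture had 8971 ± 938 FPKM when treated at 72 h and 7947 ± 251 FPKM at 36 h, and 8517 ± 171 FPKM when untreated at 72 h and 7854 ± 97.6 FPKM at 36 h. Untreated co-culture at 36 h held the lowest sums of all 8 groups for complexes I to V. For complex IV this group had 1885 ± 54.7 FPKM, against 2034 ± 20.9 FPKM in untreated normal culture of the same age, and the libraries of these groups did not overlap. In the treated 72 h groups replicate 3 summed to 9754 FPKM in co-culture and 10046 FPKM in normal culture, while replicates 1 and 2 lay between 8321 and 8546 FPKM.

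**Figure D1:**
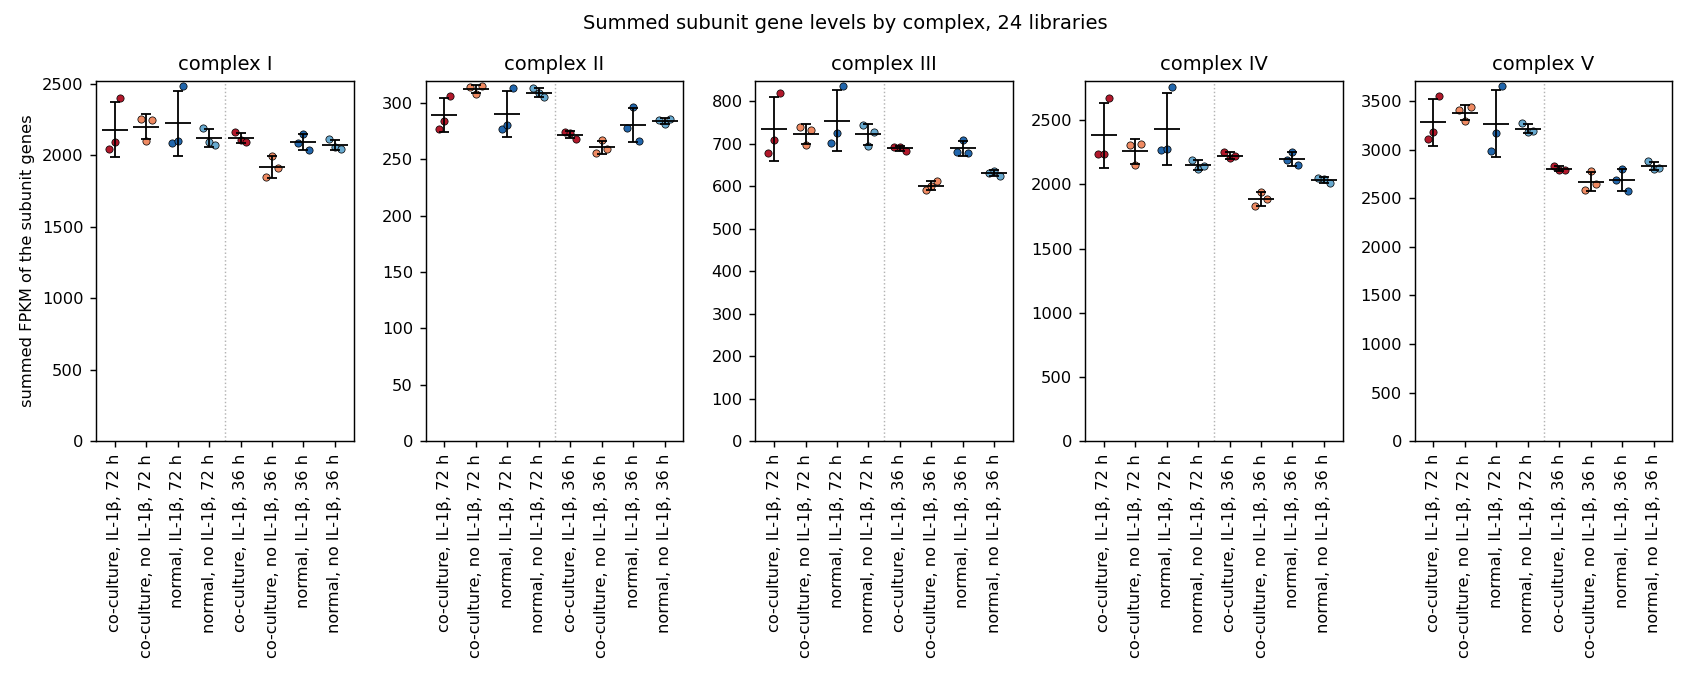
Summed FPKM of the subunit genes of each complex (vertical axis, from 0) in each library, by group (horizontal axis), with points for libraries and lines for the mean and SD of 3. Complex V sums were 2672 to 2833 FPKM on average in the 36 h groups and 3215 to 3382 FPKM in the 72 h groups.

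The largest changes with IL-1β and with time were those of complex IV isoforms used in few tissues. Cox6b2 (chromosome 7, 4751792 to 4753094, minus strand) is the isoform of subunit 6b best known from testis. At 36 h it had 53.1, 54.5 and 47.7 FPKM in treated co-culture, against 8.14, 5.83 and 7.23 FPKM in untreated co-culture. In normal culture of the same age it had 62.8, 55.7 and 63.4 FPKM with IL-1β, against 6.85, 7.05 and 7.17 FPKM without. Treated and untreated libraries were far apart in both cultures. At 72 h the values were 8.23, 7.10 and 9.64 FPKM in treated and 4.91, 4.31 and 5.69 FPKM in untreated co-culture. In normal culture at 72 h they were 14.2, 9.59 and 13.4 FPKM with IL-1β, against 5.97, 6.65 and 4.99 FPKM without. The groups still did not overlap, but the gap was small beside that at 36 h. Its log2 change with IL-1β, on the scale of log2(FPKM + 1) used for every change here, was 2.72 ± 0.13 in co-culture and 2.94 ± 0.13 in normal culture at 36 h (SE, limma, adjusted p = 3.61e-14 and 5.47e-15). At 72 h it was 0.64 ± 0.13 in co-culture and 0.95 ± 0.13 in normal culture (adjusted p = 2.28e-04 and 1.04e-06). The common isoform Cox6b1 averaged 185 to 252 FPKM in the 8 groups.

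Cox4i2 (chromosome 2, 152754173 to 152765037, plus strand), the isoform of subunit 4 known from lung, differed by IL-1β, time and culture. At 72 h it had 17.8, 14.6 and 19.5 FPKM in treated co-culture, against 10.7, 7.40 and 9.68 FPKM in untreated co-culture. At the same time it had 25.0, 13.5 and 18.2 FPKM in treated normal culture, against 7.29, 7.28 and 7.43 FPKM in untreated normal culture. Every treated library lay above every untreated one of its culture. At 36 h the levels were 36.9, 34.6 and 34.8 FPKM in treated and 40.0, 39.4 and 39.7 FPKM in untreated co-culture. Normal culture at 36 h had 29.8, 29.6 and 31.0 FPKM with IL-1β, against 22.8, 20.2 and 17.1 FPKM without. Treated libraries thus lay below untreated ones in co-culture and above them in normal culture. With IL-1β it rose by 0.84 ± 0.14 in co-culture and 1.21 ± 0.14 in normal culture at 72 h (SE, limma, adjusted p = 4.87e-05 and 2.03e-07), and by 0.57 ± 0.14 in normal culture at 36 h (adjusted p = 0.00133). The difference of -0.16 in co-culture at 36 h did not pass (adjusted p = 0.351). Cox4i1, the common isoform, averaged 316 to 362 FPKM in the 8 groups and passed in none of the 16 comparisons.

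The heart and skeletal muscle isoforms Cox6a2, Cox7a1 and Cox8b were present at low levels. Cox6a2 had 1.9, 1.44 and 3.17 FPKM in treated and 3.32, 3.04 and 3.18 FPKM in untreated co-culture at 72 h. In normal culture at 72 h it had 0.23, 1.67 and 1.43 FPKM with IL-1β, against 1.23, 1.23 and 1.39 FPKM without. At 36 h all 12 libraries lay between 3.51 and 6.39 FPKM, above every 72 h library. Cox7a1 had 2.80, 2.33 and 2.32 FPKM in treated and 0.74, 1.04 and 0.74 FPKM in untreated normal culture at 72 h, without overlap, and rose by 0.92 ± 0.18 there (SE, limma, adjusted p = 1.36e-04). It also rose in normal culture at 36 h, by 0.85 ± 0.18 (adjusted p = 2.71e-04), and in co-culture at 36 h, by 0.55 ± 0.18 (adjusted p = 0.0121; 0.0559 without replicate 3 of untreated co-culture). Cox8b reached 1 FPKM only in treated 36 h libraries and so was tested because of them. Among the 36 h libraries it had 1.35, 0.75 and 1.51 FPKM in treated and 0.15, 0.91 and 0.3 FPKM in untreated co-culture, with overlap, and at 72 h every library lay at 0.44 FPKM or below. Since those treated libraries let it pass the filter, its differences with IL-1β and time are given as a description with no test, although the counts of members include it where it was called: higher in treated than in untreated co-culture at 36 h, and lower with time in treated co-culture and in both treated and untreated normal culture. The summed level of 16 skeletal muscle markers moved with time too: it was 155 to 201 FPKM in treated and 87.0 to 103 FPKM in untreated co-culture at 72 h, and 124 to 145 FPKM in treated and 61.6 to 71.7 FPKM in untreated normal culture at 72 h. At 36 h the same sum was 369 to 479 FPKM over the 4 groups, with Ryr1 averaging under 1 FPKM in each of the 8 groups. The part of muscle-type RNA in the levels of these 3 isoforms was not tested.

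**Figure D2:**
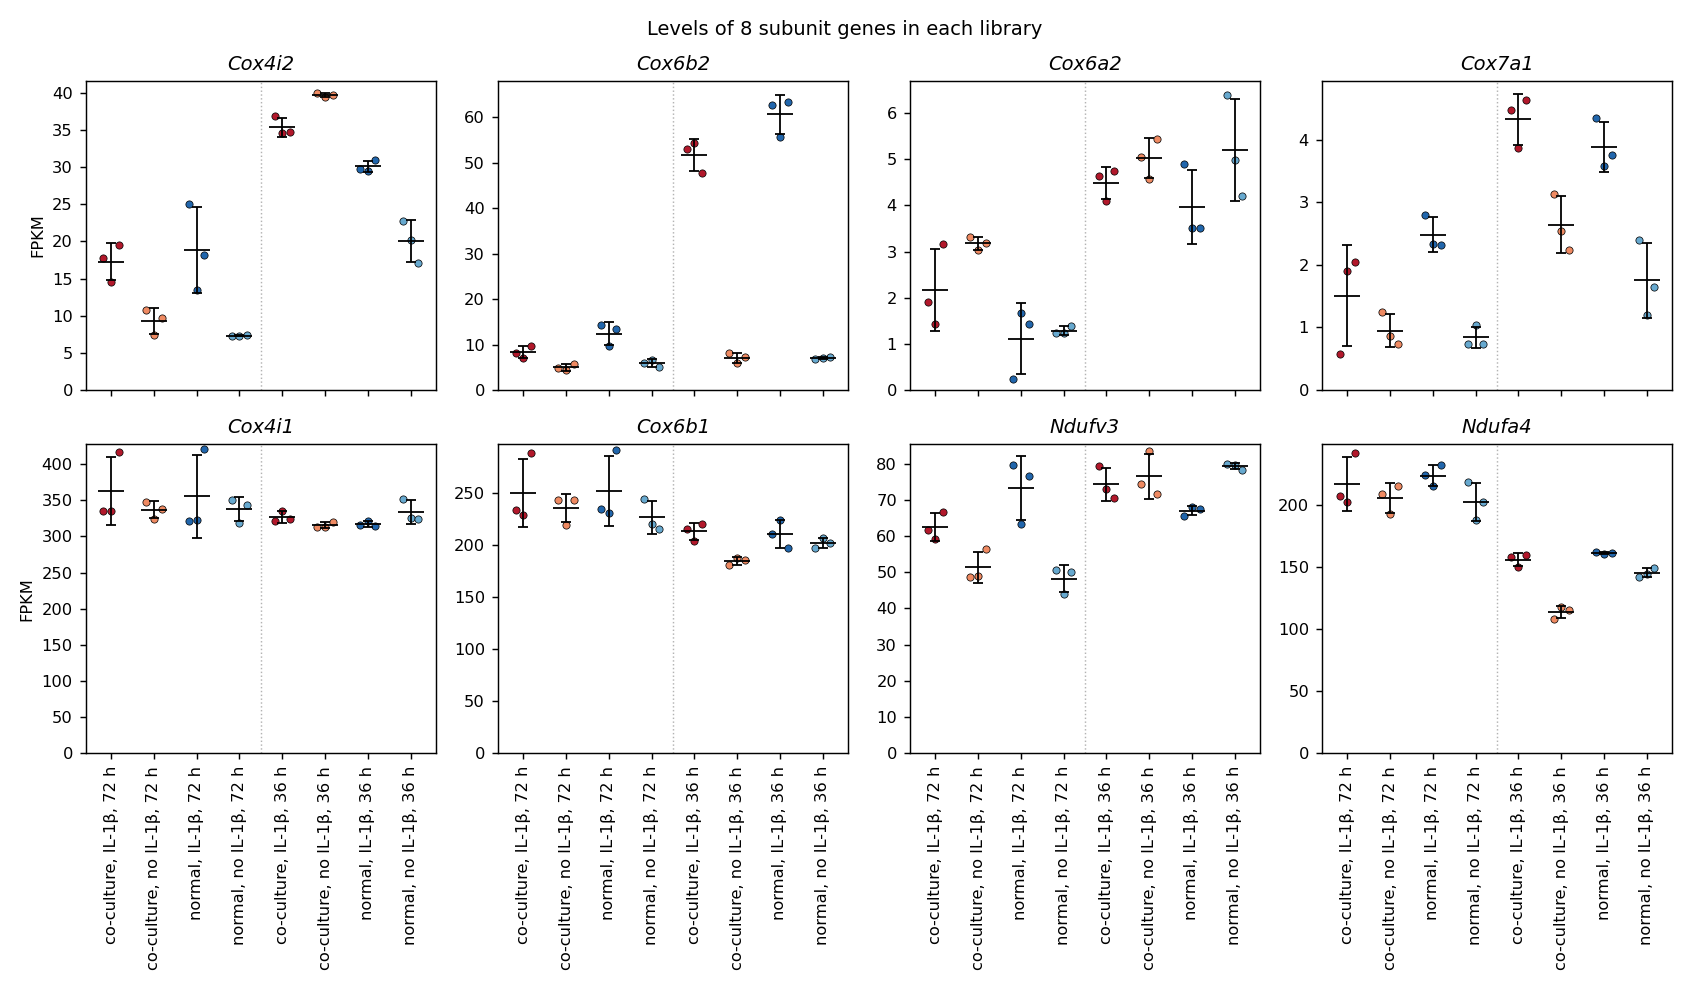
FPKM (vertical axis) of 4 tissue-restricted complex IV isoforms, 2 common isoforms, Ndufv3 and Ndufa4 in each library by group, with points for libraries and lines for the mean and SD of 3. Cox6b2 lies between 47.7 and 63.4 FPKM in the treated 36 h libraries and at 14.2 FPKM or below in all others.

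Time in culture moved the largest number of members. Between 72 h and 36 h, 56 members were higher and 7 lower in untreated co-culture, where 36.6% and 24.9% of the 12178 tested genes were higher and lower, and the median change was 0.27 over the members and 0.05 over all tested genes. Treated co-culture had 29 higher and 11 lower members (35.4% and 28.9% of all tested genes), with medians of 0.12 and 0.02. In normal culture 39 members were higher and 9 lower with IL-1β (37.1% and 32.0% of all tested genes; medians 0.15 and 0.02), and 28 were higher and 8 lower without it (33.1% and 25.3%; medians 0.11 and 0.03). The share of members higher was above that of all genes in untreated co-culture and treated normal culture and near it in the other 2 settings, and fewer members than genes at large were lower in all 4. Rescaling every library to the same total (TPM) gave 31 higher and 14 lower in treated normal culture. Without replicate 3 of both treated 72 h groups the counts were 24 and 17 in treated co-culture and 28 and 15 in treated normal culture. No share of all tested genes is given for these alternative fits, here or by complex below. In all 4 settings 19 members were higher and 5 lower, and 16 and 5 of them passed in each setting under 3 scalings.

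Markers of other cell types moved with time as well. Of 10 dermal fibroblast markers, 7 or 8 were lower and 1 or 2 higher at 72 h in each setting, and their sum was 4549 to 5158 FPKM in the 72 h libraries and 7528 to 8395 FPKM in the 36 h libraries, with Dpp4 averaging under 1 FPKM in 6 of 8 groups. Of 7 tested macrophage markers of 8 listed, 6 were higher in each setting, and 1, Cd68, was lower in treated normal culture. Their sums were 95.3 to 155 FPKM at 72 h and 50.4 to 81.2 FPKM at 36 h. Ptprc averaged under 1 FPKM in every group, and Adgre1 and Csf1r did so in every 36 h group. Both tested adipocyte markers of 6 listed, Fabp4 and Adipoq, were lower in each setting, with sums of 12.2 to 29.0 FPKM at 72 h and 67.6 to 103 FPKM at 36 h. Cidec, Ucp1 and Cidea averaged under 1 FPKM in every group. All markers but Fabp4 did so in the 72 h groups and the treated 36 h groups, so the sum rests largely on Fabp4. The skeletal muscle sum given above was lower at 72 h too, with 12 to 15 of 15 tested markers lower. The part of other cells in the changes of the members with time was not tested.

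In complex I, 25 of 36 members were higher and 2 lower at 72 h in untreated co-culture, and 10 and 4 in treated co-culture. In normal culture 14 were higher and 3 lower with IL-1β, and 10 and 3 without. Higher members made up 69.4% in untreated and 27.8% in treated co-culture, and 38.9% and 27.8% in treated and untreated normal culture. Of all tested genes 36.6%, 35.4%, 37.1% and 33.1% were higher in that order. The 27.8% in treated co-culture and in untreated normal culture lay only a few members below the share of all genes, and this gap was not tested. In treated co-culture 8 members were higher with TPM and 8 with median of ratios. In untreated normal culture these counts were 13 and 6, so the gap there depended on the scaling. Leaving out replicate 3 of the treated 72 h groups gave 8 higher and 7 lower in treated co-culture and 9 and 6 in treated normal culture. Ndufv1, which binds NADH, had 45.4, 47.4 and 52.7 FPKM at 72 h and 38.9, 37.0 and 39.7 FPKM at 36 h in treated co-culture. Its groups did not overlap in any of the 4 settings, and its changes were 0.32 and 0.38 in treated and untreated co-culture and 0.31 and 0.23 in treated and untreated normal culture (SE 0.06 each, limma, highest adjusted p = 0.00182). Ndufa6, an accessory subunit, went the other way. It had 45.2, 46.9 and 51.1 FPKM at 72 h and 82.9, 82.3 and 73.0 FPKM at 36 h in treated co-culture, and 49.5, 48.9 and 54.6 FPKM at 72 h and 80.9, 82.8 and 71.2 FPKM at 36 h in treated normal culture. All 72 h libraries lay below those at 36 h, and it fell by 0.72 ± 0.08 and 0.61 ± 0.08 in these 2 settings (SE, limma, adjusted p = 1.14e-07 and 1.09e-06).

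Complex II had all 4 members higher at 72 h in untreated co-culture, 1 in treated co-culture, 1 in treated normal culture and 3 in untreated normal culture. Of all tested genes 33.1 to 37.1% were higher over the 4 settings. The 25.0% in both treated settings is 1 of 4 members, too few to be told from that share. In treated normal culture 1 member was lower without replicate 3 of the treated 72 h groups, and 1 with TPM. Sdha, the flavoprotein that oxidizes succinate, was higher in each setting, although with TPM the call in treated normal culture was lost (0.09, adjusted p = 0.0848). It had 81.1, 81.9 and 79.1 FPKM at 72 h and 63.7, 67.9 and 64.5 FPKM at 36 h in untreated co-culture, and 81.2, 79.3 and 79.3 FPKM at 72 h and 68.5, 72.4 and 73.9 FPKM at 36 h in untreated normal culture. The 2 times did not overlap in these settings, where the changes were 0.30 ± 0.04 and 0.16 ± 0.04 (SE, limma, adjusted p = 3.99e-07 and 9.71e-04).

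In complex III, 4 of 8 members were higher at 72 h in untreated co-culture, 3 in treated co-culture, 6 in treated normal culture and 4 in untreated normal culture. Over the 4 settings 33.1 to 37.1% of all tested genes were higher, and the 37.5% of members in treated co-culture is near that share. The only lower call was Uqcrh in treated co-culture, which is described with IL-1β. With replicate 3 of the treated 72 h groups left out, 2 were higher and 1 lower in treated co-culture and 4 and 2 in treated normal culture, and TPM also gave 2 lower in treated normal culture. Uqcrc1, a core protein, had 85.6, 87.5 and 87.3 FPKM at 72 h and 60.6, 61.1 and 62.5 FPKM at 36 h in untreated co-culture, with no overlap and a change of 0.49 ± 0.06 (SE, limma, adjusted p = 9.75e-07). Uqcrq, a small subunit, had 39.4, 40.6 and 49.7 FPKM at 72 h and 28.7, 30.7 and 25.7 FPKM at 36 h in treated normal culture. Again no library of one time reached those of the other, and the change was 0.59 ± 0.08 (SE, limma, adjusted p = 1.77e-06).

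Complex IV split. At 72 h, 10 members were higher and 5 lower in untreated co-culture, 7 and 6 in treated co-culture, 7 and 6 in treated normal culture and 4 and 5 in untreated normal culture. Higher members made up 58.8, 41.2, 41.2 and 23.5% in this order, against 33.1 to 37.1% of all tested genes. Lower members made up 29.4 to 35.3%, against 24.9 to 32.0%. Except in untreated co-culture, the lower calls include Cox8b, which was tested only because of treated 36 h libraries. The treated counts were, without replicate 3 at 72 h, 5 and 7 in treated co-culture and 6 and 6 in treated normal culture. Those higher included Cox5a, with 117.95, 122.1 and 138.4 FPKM at 72 h and 85.6, 83.2 and 92.7 FPKM at 36 h in treated co-culture, and Ndufa4. Ndufa4 had 209.1, 192.8 and 215.8 FPKM at 72 h and 108.2, 117.9 and 115.8 FPKM at 36 h in untreated co-culture. All 72 h libraries of both genes lay above those at 36 h, and the change of Ndufa4 was 0.85 ± 0.06 in this setting, against 0.47 ± 0.06 in each of the other 3 (SE, limma, highest adjusted p = 9.43e-07). Those lower in all 4 settings were Cox4i2, Cox6a2, Cox7a1 and Cox7a2l. Cox4i2 fell by 1.00 ± 0.14 in treated and 2.00 ± 0.14 in untreated co-culture, and by 0.69 ± 0.14 in treated and 1.33 ± 0.14 in untreated normal culture (SE, limma, highest adjusted p = 2.43e-04). Cox6a2 fell by 0.83 and 0.53 in treated and untreated co-culture and by 1.30 and 1.43 in treated and untreated normal culture (SE 0.21 each, limma, highest adjusted p = 0.0323). Its call in untreated co-culture was lost on leaving out any of 5 of the 6 libraries, with adjusted p of up to 0.0920. Cox7a1 fell by 1.14 in treated and 0.90 in untreated co-culture (SE 0.18), and by 0.49 and 0.56 in normal culture, where the call was lost without replicate 1 at 36 h (adjusted p = 0.0763 with IL-1β and 0.0866 without) and, with IL-1β, without replicate 2 or 3 at 72 h (0.0571 and 0.0557). Cox7a2l had 147.0, 149.1 and 171.0 FPKM at 72 h and 221.0, 213.9 and 213.8 FPKM at 36 h in treated co-culture, without overlap, and fell by 0.43 to 0.52 in the 4 settings. Cox6b2 fell by 2.51 ± 0.13 in treated co-culture and by 2.22 ± 0.13 in treated normal culture (SE, limma, adjusted p = 6.72e-13 and 1.51e-12).

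In complex V, limma called 0 members lower at 72 h in each setting, with 0 lower at an unadjusted p under 0.05 and with either other scaling. There were 13 of 17 higher in untreated co-culture, 8 in treated co-culture, 11 in treated normal culture and 7 in untreated normal culture, with complex medians of 0.30, 0.16, 0.26 and 0.12. These are 76.5, 47.1, 64.7 and 41.2% of its members, against 36.6, 35.4, 37.1 and 33.1% of all tested genes. Of all tested genes 24.9 to 32.0% were lower. When replicate 3 of the treated 72 h groups was left out, 8 were higher and 2 lower in treated co-culture and 8 and 0 in treated normal culture. Atp5b had 507.1, 525.6 and 534.8 FPKM at 72 h and 365.7, 351.6 and 358.6 FPKM at 36 h in treated co-culture. In untreated normal culture it had 539.9, 521.8 and 544.6 FPKM at 72 h and 405.5, 370.4 and 386.0 FPKM at 36 h. The times stood well apart in all 4 settings, and its changes were 0.47 to 0.57 (SE 0.05, limma, highest adjusted p = 4.81e-08). Atp5g1, one of the subunit c genes, had 101.9, 99.5 and 110.7 FPKM at 72 h and 59.6, 62.9 and 64.0 FPKM at 36 h in untreated co-culture, a 1.66-fold difference of FPKM + 1. Atp5g3 had 312.7, 319.2 and 295.2 FPKM at 72 h and 184.1, 203.2 and 190.0 FPKM at 36 h in the same setting. Neither gene overlapped between the times, and their changes were 0.73 ± 0.08 and 0.68 ± 0.07 (SE, limma, adjusted p = 1.51e-07 and 5.64e-08). Atp5a1, the alpha subunit, changed by 0.13 to 0.26. Its call in untreated normal culture was lost without replicate 2 or 3 at 36 h or replicate 1 at 72 h (adjusted p = 0.0805, 0.0666 and 0.0950).

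**Figure D3:**
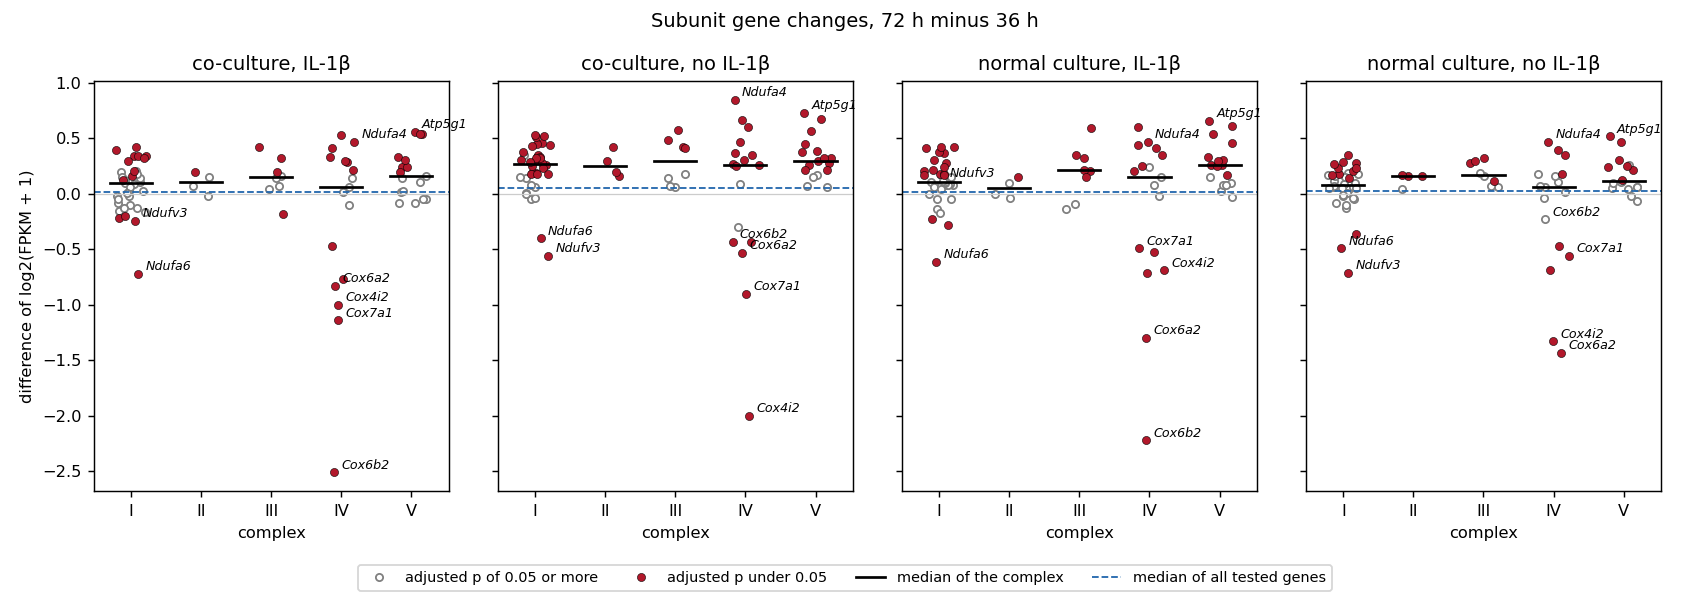
Difference of log2(FPKM + 1) between 72 h and 36 h for each member (vertical axis) by complex (horizontal axis), 1 panel per culture and IL-1β setting. Filled points passed at an adjusted p under 0.05 and open points did not, black lines mark the median of a complex and the blue dashed line that of all tested genes, which was 0.02 to 0.05. In untreated co-culture the medians of the 5 complexes lie between 0.25 and 0.30.

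As deposited, a smaller share of the members than of all tested genes was lower with IL-1β. In co-culture at 72 h, 5 members were higher and 4 lower with IL-1β, where 18.5% and 30.6% of all tested genes were higher and lower. Normal culture at 72 h had 20 higher and 8 lower, against 23.1% and 40.3% of all genes. At 36 h, 30 were higher and 2 lower in co-culture (23.4% and 35.3% of all genes) and 17 were higher and 14 lower in normal culture (25.9% and 41.5%). The median changes of the members were -0.02 and 0.07 at 72 h and 0.10 and -0.01 at 36 h in co-culture and normal culture, and those of all genes were -0.06 and -0.08 at 72 h and -0.06 and -0.09 at 36 h. The split depended on the scaling of the libraries. With TPM it was 5 higher and 31 lower in co-culture and 10 and 24 in normal culture at 72 h, and 25 and 8 in co-culture and 13 and 27 in normal culture at 36 h. With median-of-ratios scaling it was 9 and 4, and 36 and 3, at 72 h, and 36 and 0, and 20 and 9, at 36 h in the same order. The median of all genes in treated normal culture at 72 h was -0.20 with TPM and -0.01 with median of ratios, while the members stood 0.15 to 0.16 above it under all 3 scalings. No member called in the FPKM fit changed its direction under another scaling. In co-culture at 72 h the median of all genes was -0.06 with FPKM and -0.15 with TPM, and the members stood 0.04 above it under both. Without replicate 3 of both treated 72 h groups, 5 were higher and 23 lower in co-culture and 13 and 19 in normal culture. No share of all tested genes is given for the other scalings or without these libraries, here or by complex below. Those counts thus cannot be read as particular to the members.

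By complex, IV had the largest share of higher calls at 36 h, with 10 of 17 in co-culture and 7 in normal culture. The 10 include Cox8b, which was tested only because of treated 36 h libraries. At 72 h complex IV had 2 and 8, and over the 4 settings 1 lower call. Of all tested genes 18.5 to 25.9% were higher and 30.6 to 41.5% lower over these settings. The 72 h counts were 2 higher and 1 lower in co-culture and 5 and 0 in normal culture without replicate 3 of the treated groups. Besides the isoforms above, Cox8a, the common isoform of subunit 8, rose in 3 settings. It had 208.9, 207.4 and 197.1 FPKM in treated and 142.0, 149.9 and 141.7 FPKM in untreated co-culture at 36 h, and 197.9, 217.0 and 211.7 FPKM in treated and 161.1, 164.2 and 161.9 FPKM in untreated normal culture. Treated libraries lay above untreated ones in both, and the changes were 0.50 ± 0.06 and 0.36 ± 0.06 (SE, limma, adjusted p = 8.68e-07 and 4.16e-05). In complex V, 5 members were higher and 1 lower in co-culture at 36 h, and 1 and 6 in normal culture, while at 72 h 0 were higher and 2 lower in co-culture and 2 and 3 in normal culture. After leaving out replicate 3 of the treated groups, the 72 h counts were 0 and 5 in co-culture and 1 and 7 in normal culture. Complex III had 2 higher and 0 lower in co-culture and 2 and 1 in normal culture at 36 h, and 1 and 0 in co-culture and 4 and 1 in normal culture at 72 h. Its 72 h counts were 1 and 3 in co-culture and 2 and 2 in normal culture without replicate 3 of the treated groups, and with TPM 1 and 3, and 0 and 3.

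Uqcrh (chromosome 4, 116066965 to 116075071, minus strand), the hinge protein of complex III, rose in all 4 settings. At 36 h it had 201.2, 202.9 and 205.9 FPKM in treated and 141.2, 142.5 and 138.8 FPKM in untreated co-culture, and 203.0, 220.7 and 210.6 FPKM in treated and 135.7, 148.4 and 139.9 FPKM in untreated normal culture. At 72 h it had 168.1, 171.3 and 201.3 FPKM in treated and 157.3, 149.6 and 158.3 FPKM in untreated co-culture, and 188.5, 177.1 and 210.0 FPKM in treated and 183.7, 164.9 and 167.5 FPKM in untreated normal culture. The groups overlapped only in normal culture at 72 h. The changes were 0.53 ± 0.06 and 0.58 ± 0.06 in co-culture and normal culture at 36 h, and 0.21 ± 0.06 and 0.15 ± 0.06 at 72 h (SE, limma, adjusted p = 2.94e-07, 4.56e-08, 0.00848 and 0.0389). The call in co-culture at 72 h was lost without treated replicate 3 (adjusted p = 0.0831). In normal culture at 72 h the change was 0.03 with TPM (adjusted p = 0.566), and the call was lost without untreated replicate 2 or 3 or treated replicate 3 (adjusted p = 0.140, 0.112 and 0.235). Without replicate 3 of both treated groups the changes of Uqcrh at 72 h were 0.13 in co-culture and 0.09 in normal culture (adjusted p = 0.0320 and 0.120).

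Sdha and Atp5a1 were lower in all 4 settings. Sdha had 68.8, 71.3 and 68.1 FPKM in treated and 81.1, 81.9 and 79.1 FPKM in untreated co-culture at 72 h, and 70.3, 69.7 and 69.2 FPKM in treated and 81.2, 79.3 and 79.3 FPKM in untreated normal culture. No treated library reached an untreated one. It fell by 0.22 and 0.19 at 72 h and by 0.11 and 0.19 at 36 h in co-culture and normal culture (SE 0.04, limma, highest adjusted p = 0.0112). The call in co-culture at 36 h was lost with median of ratios (adjusted p = 0.115) and without replicate 2 of the untreated or the treated group (0.0761 and 0.0591). Atp5a1 had 193.6, 200.8 and 196.8 FPKM in treated and 248.8, 231.0 and 233.0 FPKM in untreated normal culture at 36 h, without overlap, and fell by 0.27 ± 0.05 (SE, limma, adjusted p = 3.30e-05). It fell by 0.14 to 0.16 in the other 3 settings. With median of ratios the call was lost in normal culture at 72 h and in co-culture at 36 h (adjusted p = 0.299 and 0.0664), and in normal culture at 72 h also without replicate 1 of the untreated or the treated group (0.0767 and 0.105). Cox6b2 was the only member called in all 4 settings under all 3 scalings.

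In complex I, 13 members were higher and 0 lower in co-culture at 36 h by limma, with 0 lower at an unadjusted p under 0.05, 1 lower with TPM and 0 with median of ratios, while normal culture at 36 h had 6 higher and 5 lower. Of all tested genes 18.5 to 25.9% were higher and 30.6 to 41.5% lower with IL-1β over the 4 settings. At 72 h complex I had 2 higher and 1 lower in co-culture and 6 and 3 in normal culture. These were 2 and 16, and 4 and 10, with TPM, and 2 and 11, and 5 and 7, without replicate 3 of the treated groups. Ndufa6 had 80.9, 82.8 and 71.2 FPKM in treated and 54.9, 57.8 and 57.5 FPKM in untreated normal culture at 36 h, without overlap, and rose by 0.46 ± 0.08 (SE, limma, adjusted p = 4.37e-05). Ndufa5, an accessory subunit, was lowest in treated normal culture at 36 h. It had 28.4, 31.7 and 32.3 FPKM there, against 47.1, 41.5 and 39.4 FPKM without IL-1β, a fall by 0.46 ± 0.10 (SE, limma, adjusted p = 2.79e-04). At 72 h it fell by 0.32 in normal culture, a call lost without treated replicate 2 (adjusted p = 0.0698). Ndufs1, the large iron-sulphur subunit, had 33.6, 35.5 and 34.2 FPKM in treated and 42.8, 44.2 and 41.9 FPKM in untreated normal culture at 72 h. The groups stood apart, and it fell by 0.31 ± 0.04 (SE, limma, adjusted p = 2.57e-06).

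**Figure D4:**
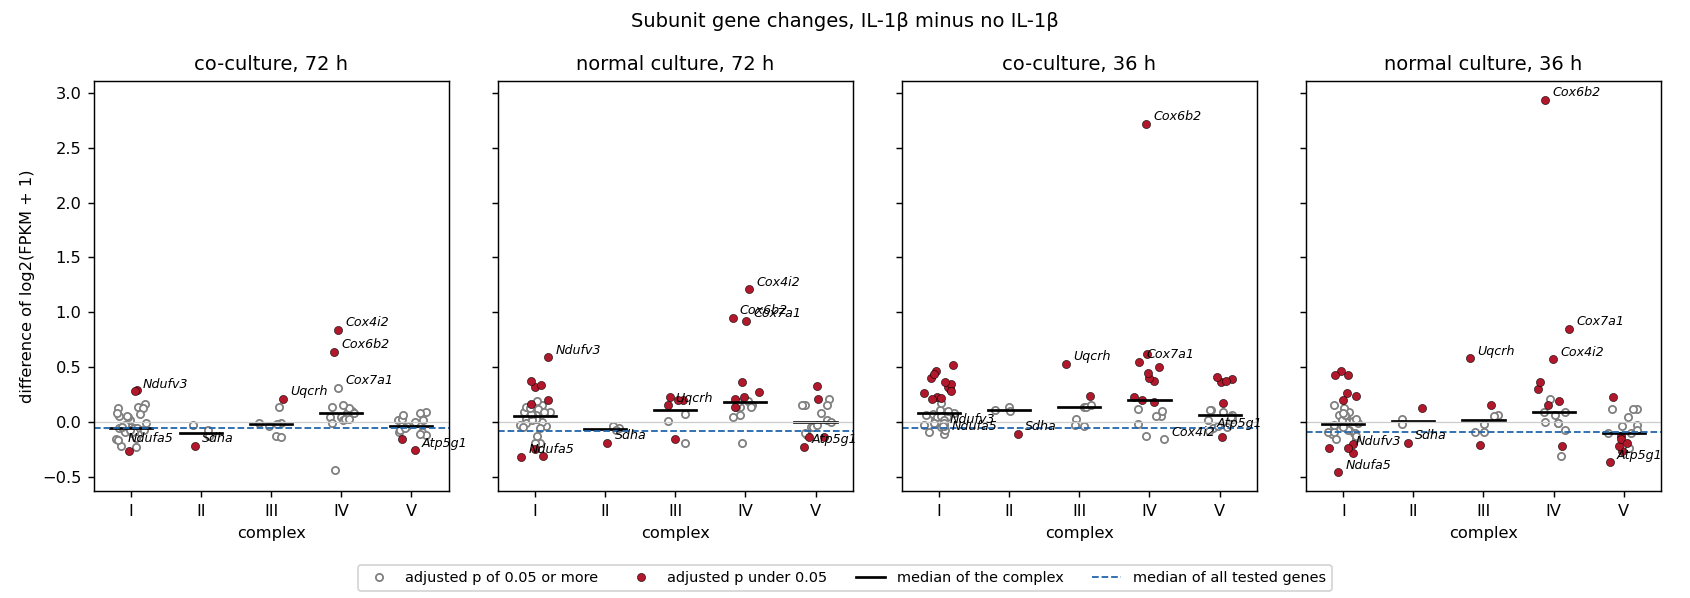
Difference of log2(FPKM + 1) between treated and untreated libraries for each member (vertical axis) by complex (horizontal axis), 1 panel per culture and time. Symbols are those of the plot of changes with time, and the blue dashed line of all tested genes lies at -0.09 to -0.06. Cox6b2 stands alone at 2.72 and 2.94 in the 36 h panels.

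The IL-1β effect differed between the times for Ndufv3 (chromosome 17, 31520115 to 31531331, plus strand), an accessory subunit of complex I. At 72 h it had 61.7, 59.3 and 66.7 FPKM in treated and 48.8, 49.1 and 56.3 FPKM in untreated co-culture, and 79.8, 63.4 and 76.7 FPKM in treated and 50.7, 44.0 and 50.01 FPKM in untreated normal culture. At 36 h it had 79.4, 73.1 and 70.4 FPKM in treated and 74.4, 83.4 and 71.7 FPKM in untreated co-culture, and 65.5, 68.2 and 67.5 FPKM in treated and 79.8, 79.7 and 78.3 FPKM in untreated normal culture. In normal culture all treated libraries were above the untreated ones at 72 h and below them at 36 h. The IL-1β effect there was 0.59 ± 0.08 at 72 h and -0.24 ± 0.08 at 36 h, where the lower call at 36 h was lost with median of ratios (-0.17, adjusted p = 0.0514). The difference between these effects was 0.83 ± 0.11 (SE, limma, adjusted p = 2.78e-06). In co-culture the difference was 0.32 ± 0.11 (adjusted p = 0.0314), a call lost on leaving out any of 6 of the 12 libraries, with adjusted p of up to 0.0986, and without replicate 3 of both treated 72 h groups (0.27, adjusted p = 0.0691).

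In this test of the IL-1β effect at 72 h minus that at 36 h, 2 members were higher and 17 lower in co-culture (14.1% and 14.8% of all tested genes), and 6 higher and 5 lower in normal culture (23.7% and 21.6%). The count of 17 ranged between 7 and 28 on leaving out single libraries and was 40 without replicate 3 of both treated 72 h groups. The shares above are those of the fit of all libraries. No share of all tested genes is given for these other fits, so the 40 cannot be read as particular to the members. Cox6b2 gave the largest differences, -2.08 ± 0.18 in co-culture and -1.99 ± 0.18 in normal culture (SE, limma, adjusted p = 1.13e-08 and 1.25e-08). For Cox4i2 they were 1.00 ± 0.20 and 0.64 ± 0.20 (adjusted p = 7.61e-04 and 0.0142), and for Uqcrh -0.31 ± 0.09 and -0.42 ± 0.09 (adjusted p = 0.0111 and 6.32e-04). Complex I held 8 of the 17 lower calls in co-culture, among them Ndufc1 at -0.53 ± 0.12 (adjusted p = 0.00257).

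Between co-culture and normal culture, few members were called in the fit of all libraries. Their share was near or below that of all tested genes in each setting. Without IL-1β at 36 h, 1 member was higher and 7 were lower in co-culture than in normal culture (6.28% and 9.20% of all tested genes), and the median was -0.10 over the members and -0.03 over all genes. At an unadjusted p under 0.05 there were 24 members in either direction. TPM gave 1 higher and 16 lower, and median of ratios 1 and 3. A fit of the compared groups alone called 27 lower, and leaving out single libraries left between 1 and 9 lower. No share of all tested genes is given for these alternative fits or for those of the other co-culture comparisons below. The lower members were Ndufa4 and Cox6c of complex IV, Ndufs5, Ndufc1, Ndufa13 and Ndufs1 of complex I, and Sdha. Ndufa4 (chromosome 6, 11900292 to 11907497) had 108.2, 117.9 and 115.8 FPKM in co-culture, against 142.4, 144.8 and 149.6 FPKM in normal culture. It fell by 0.35 ± 0.06 with no overlap (SE, limma, adjusted p = 3.59e-04), and its call held on leaving out each of the 6 libraries. The others fell by 0.13 to 0.29. Of these, Ndufs5 and Ndufc1 lost the call without replicate 1 or 3 of co-culture or replicate 1 or 2 of normal culture (highest adjusted p = 0.147 and 0.229), and Sdha without replicate 1 or 3 of co-culture or replicate 2 or 3 of normal culture (highest 0.105). Ndufs1 lost it in 5 of 6 such fits (highest 0.151), and Cox6c without replicate 1 of co-culture (0.113) or of normal culture (0.0969). Cox4i2 was the higher member, with the values of the 36 h groups above, and rose by 0.96 ± 0.14 (SE, limma, adjusted p = 5.97e-05).

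Without IL-1β at 72 h, co-culture had 1 member higher, Cox6a2, and 0 lower by limma (1.72% and 1.68% of all tested genes). At an unadjusted p under 0.05 there were 15 members in either direction, TPM called 1 lower, and a fit of the compared groups alone called 11 higher and 1 lower. Cox6a2 rose by 0.87 ± 0.21 (SE, adjusted p = 0.0229), a call lost on leaving out any of the 6 libraries, with adjusted p of up to 0.0780. The sum of skeletal muscle markers was also higher here, at 87.0 to 103 FPKM in co-culture and 61.6 to 71.7 FPKM in normal culture, and its part in the result was not tested. With IL-1β at 36 h, 1 member was higher, Atp5k, the small subunit e of ATP synthase, and 0 were lower by limma (6.38% and 4.17% of all tested genes), while 2 members had an unadjusted p under 0.05 and the compared groups alone gave 4 higher and 1 lower. Atp5k had 65.2, 63.4 and 64.6 FPKM in co-culture and 56.4, 48.8 and 42.5 FPKM in normal culture, without overlap, and rose by 0.39 ± 0.11 (SE, adjusted p = 0.0296), which was lost in 5 of 6 fits that left out a library (adjusted p of up to 0.160).

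With IL-1β at 72 h, Cox6a2 was higher and Cox6b2 lower in co-culture (7.22% and 5.26% of all tested genes were higher and lower). TPM gave 1 higher and 2 lower, and median of ratios 0 and 4. Cox6b2 fell by 0.51 ± 0.13 (SE, limma, adjusted p = 0.0118), with 1 co-culture library above the lowest normal culture library. The call was lost without replicate 1 of normal culture or replicate 2 of co-culture (adjusted p = 0.0773 and 0.0751). Cox6a2 rose by 0.63 ± 0.21 (adjusted p = 0.0493), with overlap, and was lost without replicate 1 of normal culture (0.28, adjusted p = 0.331) without replicate 1 or 3 of co-culture (0.0810 and 0.202), and without replicate 3 of both groups (0.55, adjusted p = 0.0940). Muscle markers summed to 155 to 201 FPKM in co-culture and 124 to 145 FPKM in normal culture, and their part in the result was not tested. With the replicate number as a block, 0 members were higher and 2 lower, Cox6b2 and Ndufa1. On leaving out replicate 3 of both groups, 0 were higher and 3 lower.

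**Figure D5:**
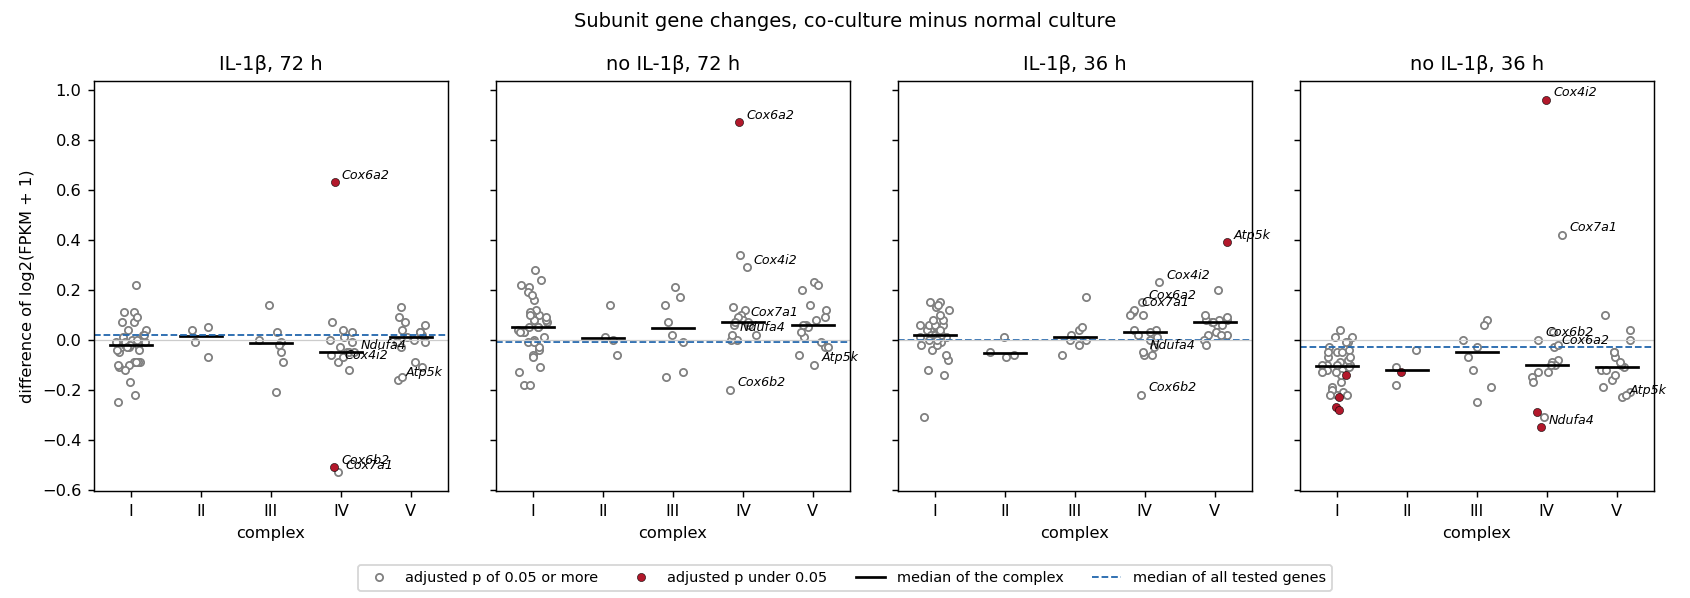
Difference of log2(FPKM + 1) between co-culture and normal culture for each member (vertical axis) by complex (horizontal axis), 1 panel per IL-1β and time setting. Symbols are those of the plot of changes with time. Filled points number 8 in untreated cells at 36 h, 2 in treated cells at 72 h and 1 in each of the other panels.

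The IL-1β effect in co-culture was also compared with that in normal culture by the interaction of both. At 36 h, 3 members had a higher and 1 a lower effect in co-culture (4.73% and 2.23% of all tested genes): Atp5k 0.62 ± 0.16, Ndufc1, an accessory subunit of complex I, 0.42 ± 0.12, Ndufa4 0.30 ± 0.09 and Cox4i2 -0.74 ± 0.20 (SE, limma, adjusted p = 0.0175, 0.0407, 0.0368 and 0.0290). Ndufc1 had 59.1, 59.3 and 56.8 FPKM in treated and 37.7, 47.3 and 43.9 FPKM in untreated co-culture, while normal culture had 55.8, 48.4 and 53.7 FPKM with IL-1β, against 53.7, 54.3 and 47.8 FPKM without. Its groups were apart in co-culture and overlapped in normal culture. These calls were lost on leaving out any of 3 libraries for Atp5k, 9 for Ndufc1, 10 for Ndufa4 and 9 for Cox4i2, of 12 each, with adjusted p of up to 0.0643, 0.130, 0.108 and 0.0896. A fit of the compared groups alone called 15 higher. At 72 h limma called 0 members in either direction (1.68% and 1.43% of all tested genes), 8 had an unadjusted p under 0.05, and median of ratios called 1 lower.

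Genes that serve the chain were counted for comparison, and some of the counted lists are described here. Of 19 tested genes of mitochondrial import and inner membrane transport, all 19 were higher at 72 h with IL-1β in each culture and 17 without it in each culture, and 0 were lower in any of the 4 settings by limma or under either other scaling. Of all tested genes, 33.1 to 37.1% were higher at 72 h. Slc25a5, the ADP/ATP translocase, was higher by 0.99 and 1.01 in treated and untreated co-culture and by 0.96 and 0.81 in treated and untreated normal culture. Tomm40, the pore of the outer membrane translocase, was higher by 1.02, 0.71, 1.08 and 0.41 in that order, and Cycs, cytochrome c, by 0.74 to 0.79. With IL-1β at 36 h, 2 of the 19 were higher and 10 lower in co-culture and 2 and 15 in normal culture, where 35.3% and 41.5% of all tested genes were lower. At 72 h, 2 were higher and 2 lower in co-culture and 3 and 5 in normal culture (30.6% and 40.3% of all genes lower). Of 24 tested complex IV assembly factors, 4 were higher and 4 lower with IL-1β in co-culture and 2 and 7 in normal culture at 36 h. At 72 h these were 3 and 7, and 6 and 8. The medians were -0.06 to -0.01, and 18.5 to 25.9% of all tested genes were higher and 30.6 to 41.5% lower. Within this list Higd2a was higher with IL-1β by 0.45 to 0.75 and Cox17, a copper chaperone, by 0.34 to 0.93 over the 4 settings. Lrpprc, which stabilizes mitochondrial mRNA, fell by 0.30 to 0.68, and Higd1a was lower at 36 h and higher at 72 h in both cultures. Among 11 regulators of respiratory genes, 4 to 7 were lower with IL-1β in each setting and 1 or 2 higher, and over the other scalings 3 to 9 were lower, where 30.6 to 41.5% of all tested genes were lower. The 4 in co-culture at 72 h are near that share. Esrra, a nuclear receptor that drives mitochondrial genes, was higher by 0.32 to 0.77, and Gabpa, an ETS factor with targets among respiratory genes, fell by 0.22 to 0.47, where the smallest of these changes, in co-culture at 72 h, did not pass with median of ratios. Sqor, which passes electrons from sulphide to ubiquinone, was higher with IL-1β by 0.97 to 1.27. It belongs to a list of 24 tested subunits and carriers outside the rule, of which 5 to 7 were higher and 5 to 7 lower in each setting.

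Ndufa4l2, the hypoxia-inducible relative of Ndufa4 that the rule leaves out, differed from its paralog. At 72 h it fell by 1.19 to 2.84 in the 4 settings, while Ndufa4 was higher in each. Of 10 tested hypoxia-linked mitochondrial genes, a list that holds Cox4i2 and Ndufa4l2, 8 were higher in untreated co-culture than in untreated normal culture at 36 h and 5 at 72 h (6.28% and 1.72% of all tested genes). With IL-1β, 3 were higher at 36 h and 0 at 72 h (6.38% and 7.22% of all genes), with medians of 0.21 and -0.10, and 0 were lower. Ndufa4l2 was higher in untreated co-culture by 0.64 and 0.83, and Bnip3, a mitochondrial outer membrane protein, by 0.69 and 0.53. With time, 8 of the 10 were lower and 0 higher in each untreated culture. Treated co-culture had 4 higher and 3 lower at 72 h, and treated normal culture 7 and 3 (medians 0.15 and 0.46). Over these 4 settings 33.1 to 37.1% of all tested genes were higher and 24.9 to 32.0% lower. The 4 higher in treated co-culture and the 3 lower in each treated culture are near those shares. With IL-1β at 72 h, 7 were higher and 1 lower in co-culture and 8 and 1 in normal culture (medians 0.64 and 1.10). At 36 h these were 0 and 7, and 3 and 4 (medians -0.30 and -0.03). With IL-1β 18.5 to 25.9% of all tested genes were higher and 30.6 to 41.5% lower over the 4 settings. The 3 and 4 in normal culture at 36 h are near those shares. The 5 tested genes whose group means followed Cox4i2 most closely were Irf2bpl, Trappc6a, Trpm4, Rhobtb1 and Fam98c, with Pearson r between 0.977 and 0.981 over the 8 group means. These means share the same libraries, and r is given as a description.

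RefSeq promoter windows of 300 bases, 250 before and 50 after the start, were matched for 67 of the 82 members (72 windows) and read on both strands. The ETS motif CCGGAAG was found in 23.6% of the member windows and 8.86% of all 32851 windows. AAGATGGC, a motif of YY1, was in 13.9% and 2.75%, AAGGTCA of estrogen-related receptors in 11.1% and 4.72%, and the motif of NRF1 in 6.94% and 0.971%. The cyclic AMP response element TGACGTCA was in 5.56% and 1.79%, the hypoxia response element core ACGTG in 25.0% and 19.6%, and the NF-kB motif in 0 member windows and 0.411% of all windows. The NRF1 share of the members rests on 5 windows. All windows cover 27025 genes, more than the 12178 tested, and windows of tested genes alone were not compared. The Uqcrh stretch shown above holds the ETS letters, and that of Atp5g3 those of the estrogen-related receptor and the hypoxia core.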

How the data were processed

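The authors deposited FPKM for each gene in each library, per the file headers, and used genome build GRCm38, per the submitters' processing notes. How reads were aligned, counted and filtered, with which annotation and strand setting, is not given in the sources used here. Near copies and overlapping or antisense genes could therefore have shared reads. No column was left unmapped.

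Genes with at least 1 FPKM in at least 3 libraries were kept (12178). Values were fitted as log2(FPKM + 1) with limma 3.58.1 in R 4.3.3, 1 mean per group over all 24 libraries with 16 residual degrees of freedom. Each gene thus had 1 spread for all 8 groups. Over all tested genes the residual SD was 0.167 in treated normal culture and 0.119 in treated co-culture at 72 h. It was 0.0853 to 0.0994 in the other groups. The SE and p-values may therefore be too small where treated 72 h groups enter and too large elsewhere. The log2 scale with a pseudocount of 1 understates the change of genes near 0. Calls were made at 0.05 after Benjamini-Hochberg adjustment across the tested genes within each of 16 comparisons. The steps were tested on simulated data first, with 1 spread per gene for all groups, so unequal spread between groups was not covered. Tables and figures were made with Python 3.11, pandas 2.3.3 and matplotlib 3.10.9. Gene positions are those of GENCODE for the same build, and promoter windows are from RefSeq.

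Alternatives were a pseudocount of 0.1, no filter, TPM and median-of-ratios scaling, the replicate number as a block, fits of the compared groups alone, and leaving out each library. The compared groups alone with the block, and both treated 72 h groups without replicate 3, were added after seeing the data. Same-numbered libraries deviated together, with every correlation of deviations over 0.1 (0.364, 0.179 and 0.577), only between co-culture and normal culture with IL-1β at 72 h, so the blocked value stands beside that result.

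Named members were, per complex, the highest, the core subunits, those with tissue-restricted isoforms, and up to 3 called in each direction per comparison. Up to 3 called genes in each direction came from the lists of other genes that are described. Lists of assembly factors of complexes I, II, III and V, and of citric acid cycle and pyruvate dehydrogenase genes, were counted but are not described here. The members Ndufa1, Ndufa6, Ndufa13 and Uqcrq fall outside this rule and were chosen after their values were seen. The members and lists were chosen with earlier results of these data known.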

Additional observations from a re-analysis of the deposited data

Results flagged for a closer look

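The IL-1β effect differed between co-culture and normal culture at 36 h by the interaction test for 4 members, with log2 differences of 0.62 for Atp5k, 0.42 for Ndufc1, 0.30 for Ndufa4 and -0.74 for Cox4i2. Of the members 3.66% were called higher and 1.22% lower, against 4.73% and 2.23% of all tested genes. Each of these 4 calls was lost on leaving out some of the single libraries, as given with the interaction above.

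The IL-1β effect differed between 72 h and 36 h in both cultures for 4 members. The difference in co-culture and in normal culture was 1.00 and 0.64 for Cox4i2, 0.32 and 0.83 for Ndufv3, -2.08 and -1.99 for Cox6b2, and -0.31 and -0.42 for Uqcrh. Of all tested genes 14.1% and 14.8% were higher and lower in this test in co-culture, and 23.7% and 21.6% in normal culture. The co-culture call of Ndufv3 was lost on leaving out some of the single libraries, as given above.

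Among the members called in co-culture and not in normal culture were Ndufc1 at -0.53, Atp5k at -0.48, Ndufa4 at -0.38, Cox8a at -0.36 and Sdhb, the iron-sulphur subunit of complex II, at -0.27. Among those called in normal culture and not in co-culture were Ndufb7 at 0.37 and Ndufb3 at -0.44, both accessory subunits of complex I. Whether these differences themselves differed between the cultures was not tested. The value for Ndufb7 was 0.24 without replicate 3 of treated normal culture at 72 h (limma, adjusted p = 0.0516), and that for Sdhb lost its call on leaving out any of 9 of the 12 libraries.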

How the results depend on the processing

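Counts of members are given as higher and lower. The shares of all tested genes in these alternative fits are not given here, so the shifts cannot be read as particular to the members. TPM scaling gave 27 lower with IL-1β in normal culture at 36 h (14 with FPKM), 10 and 24 in normal culture at 72 h (20 and 8), 8 lower in co-culture at 36 h (2), and 31 lower in co-culture at 72 h (4). It gave 16 lower in untreated co-culture at 36 h (7), 1 lower at 72 h (0), 2 lower in treated co-culture at 72 h (1), 14 lower with time in treated normal culture (9) and 29 lower in the change of the IL-1β effect in co-culture (17). Median of ratios gave, for IL-1β, 9 lower in normal culture at 36 h, 36 and 3 at 72 h, 0 lower in co-culture at 36 h and 9 higher at 72 h. For co-culture it gave 3 lower without IL-1β at 36 h and 0 and 4 with IL-1β at 72 h, and 1 lower in the interaction at 72 h. Uqcrc1 reversed with TPM for IL-1β in normal culture at 72 h (-0.11, limma, adjusted p = 0.0413, against 0.01 with FPKM).

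Fits of the compared groups alone gave 12 and 3 for IL-1β in normal culture at 72 h, and for co-culture 27 lower without IL-1β at 36 h, 11 and 1 at 72 h, 4 and 1 with IL-1β at 36 h and 0 and 0 at 72 h, and 15 higher in the interaction at 36 h. The replicate block, which paired same-numbered libraries, gave 2 higher in untreated co-culture at 72 h, and 0 and 2 in treated co-culture at 72 h. The compared groups alone with the replicate block gave 13 and 3 for IL-1β in normal culture at 72 h, 8 lower in co-culture at 72 h, 24 higher with time in treated normal culture and 18 higher in the interaction at 36 h. For co-culture this fit gave 2 and 26 without IL-1β at 36 h, 13 and 3 at 72 h, 3 and 1 with IL-1β at 36 h and 0 and 0 at 72 h.

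A pseudocount of 0.1 gave 0 higher for co-culture at 72 h with and without IL-1β. No filter gave 0 higher for co-culture with IL-1β at 36 h and at 72 h, and 1 and 0 in the interaction at 36 h.

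Leaving out single libraries gave, for IL-1β, 11 to 16 higher and 10 to 14 lower in normal culture at 36 h, 11 to 27 and 3 to 15 at 72 h, 21 to 27 and 1 to 2 in co-culture at 36 h, and 3 to 9 and 2 to 13 at 72 h. For co-culture it gave 1 to 9 lower without IL-1β at 36 h, 0 to 1 higher at 72 h, 0 to 1 higher with IL-1β at 36 h, and 0 to 4 and 0 to 5 at 72 h. For time it gave 24 to 46 and 8 to 12 in treated normal culture and 22 to 35 and 8 to 14 in treated co-culture. Interactions had 0 to 4 and 0 to 1 at 36 h and 0 to 1 and 0 to 3 at 72 h, and the change of this effect with time 1 to 2 and 7 to 28 in co-culture and 2 to 10 and 4 to 5 in normal culture.

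Without replicate 3 of both treated 72 h groups, the counts were 5 and 23 for IL-1β in co-culture, 13 and 19 in normal culture, 0 and 3 for treated co-culture, 24 and 17 for time in co-culture, 28 and 15 in normal culture, 1 and 2 for the interaction at 72 h, and, for the change of this effect with time, 1 and 40 in co-culture and 5 and 8 in normal culture. The cause of these shifts was not tested. Without read counts, no counting error could be set beside low genes such as Cox8b.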
